A study of Arabidopsis thaliana with 12 samples.

Results

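The comparison described here is of Arabidopsis thaliana shoot apices on day 4 against day 2 after a shift to long days. Its members are the 4 arrays of day 4 and the 4 arrays of day 2, 8 of the 12 arrays in the series, taken by the day given in the sample titles and paired by genotype. The other 4 arrays, of day 0, show which changes had already begun. They also entered the fit of all 12 arrays and its estimate of spread, so the calls do not rest on the 8 arrays alone. All plants are of the Col-0 background, grew for 30 days at 21 °C under 9 h of light and 15 h of dark, and were then given 16 h of light and 8 h of dark. The genotypes differ in FRIGIDA (FRI) and FLOWERING LOCUS C (FLC). In fri(Col)-FLC(Col), the wild type, FRI is the Col-0 allele and FLC is intact. The second genotype, fri(Col)-flc-3, carries a deletion in FLC. The third, FRI(Sf-2)-FLC(Col), has an active FRI allele introgressed from the accession San Feliu-2 and an intact FLC. In the fourth, FRI(Sf-2)-flc-3, the active allele is combined with the FLC deletion. Each genotype has 1 array a day, so the 4 genotypes stand in for replicates and no genotype has a replicate of its own. The labels give neither the number of plants behind an array nor the hour of harvest. Plants left in short days were sampled on day 0 alone, so the effect of long days, plant age and the occasion of harvest cannot be told apart.

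As background, the shoot apex of a short-day grown plant makes leaves until long days, sensed in the leaves, send a mobile signal that turns the meristem to flower formation. GIGANTEA and the circadian clock time that response in the leaf. FLC encodes a MADS-box protein that represses flowering. FRI raises its expression where the FRI allele is active, which that of Col-0 is not. The annotation names no probe set for FRI or FLC alone, and a check of the genotypes on these genes was therefore not possible.

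The values are log2 levels from one-colour oligonucleotide arrays, and a difference of 1 is a doubling. Of 6185 probe sets tested, 2736 were assigned to 1 gene, and these stand for 2600 genes. A probe set was called when its limma p, adjusted by Benjamini-Hochberg over all 6185, was under 0.05. The standard error (SE) comes from an additive fit of genotype and day, so it mixes array noise with real differences between genotypes in their response. The table holds no detection calls, so values near its lower end may be bounds. In whole-apex RNA, fewer cells of a type and less RNA per cell cannot be told apart. Some probe sets can by design bind related transcripts, and among the genes named below this applies to those of AT2G38380, AT2G18150, AT4G37520, AT5G64120, MSRB5, GSTF3, OSM34, LCR69, RCA, LHB1B2, CCL, AT1G61610, AT1G02190, APS4 and TOPP7 and to one called probe set of THI2.1. The same applies to some called probe sets of GI. The organ polarity gene PHV, active in young organs at the apex, measured 8.19 to 8.42 on day 4 and 8.04 to 8.47 on day 2. It is 1 gene, and with no other tissue beside it, its level cannot show how pure the apex samples were.

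The FRI(Sf-2)-flc-3 day 2 array stood apart from the other 11. Its BioB hybridisation control measured 9.53, against 7.13 to 7.79 elsewhere, its GAPDH 3′ minus 5′ difference was 1.36, against 0.77 to 1.16, and its residual SD was 0.165, against 0.0969 to 0.132. A second array, of fri(Col)-FLC(Col) on day 4, had the highest mean over 23 control probe sets near the floor, 4.27 against 3.62 to 4.02. The results were therefore also computed without the FRI(Sf-2)-flc-3 day 2 array, and calls that this changed among the named genes are given beside them.

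**Figure D1:**
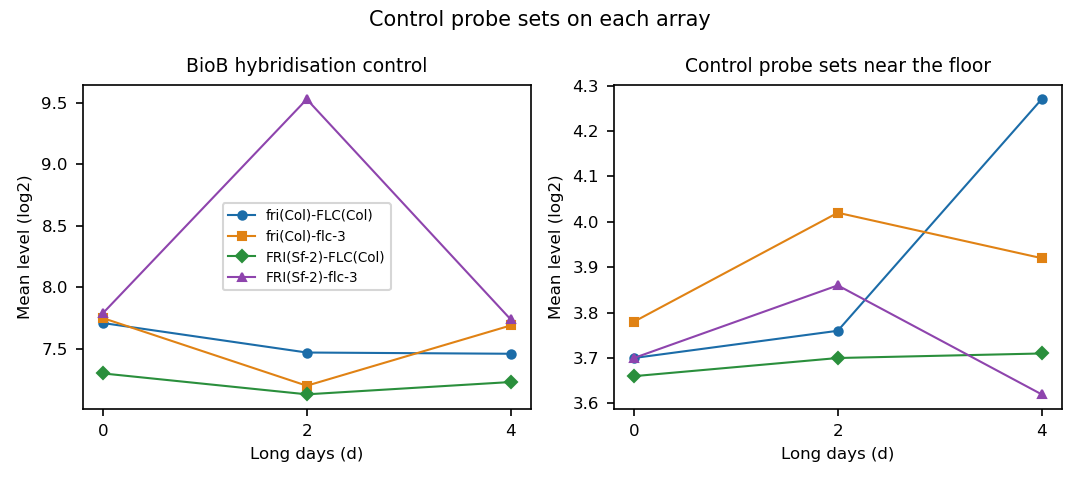
Mean log2 level of the BioB hybridisation control (left) and of 23 control probe sets near the floor (right), by days in long days, with 1 point per array and 1 line per genotype. The FRI(Sf-2)-flc-3 day 2 array is the high point at 9.53 on the left, and the fri(Col)-FLC(Col) day 4 array is the high point at 4.27 on the right.

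From day 2 to day 4 more probe sets fell than rose, and the falls were deeper. Genes encoding class III peroxidases, a glucosinolate dioxygenase, a methionine sulfoxide reductase, a lectin and a beta-glucosidase were among the deepest falls. The thionin gene THI2.1 was the one named gene that more than doubled. In total 269 probe sets were called, 4.35% of those tested. Of these 101 were higher on day 4 (1.63%) and 168 lower (2.72%), with median differences of 0.42 and -0.59. The difference exceeded 1 in size for 5 of the higher and 29 of the lower probe sets. All 4 genotypes moved the same way in 263 of the 269, but the calls were made on these same pairs, which favours equal signs. The called probe sets with 1 gene stood for 36 genes that rose and 59 that fell. Without the FRI(Sf-2)-flc-3 day 2 array 219 were called, 60 higher and 159 lower, and 173 of them, 45 higher and 128 lower, were among the 269. The count of rises was the less stable one. Leaving out 1 array brought it to between 21, without FRI(Sf-2)-flc-3 day 4, and 77, and it moved by over 1.5 times for each of the 8 arrays of day 4 and day 2 and for the day 0 arrays of fri(Col)-FLC(Col), with 64, and FRI(Sf-2)-FLC(Col), with 65. The count of falls lay between 85 and 159, and moved that far without FRI(Sf-2)-FLC(Col) day 2 (85) or the day 4 arrays of fri(Col)-FLC(Col), fri(Col)-flc-3 and FRI(Sf-2)-FLC(Col) (90, 108 and 104).

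**Figure D2:**
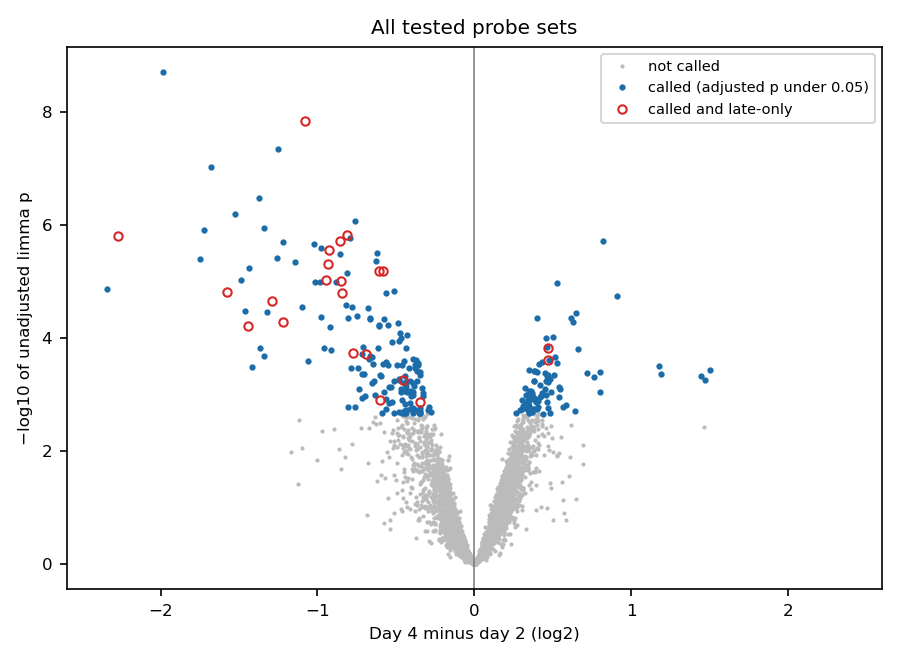
Each point is 1 of 6185 tested probe sets, with day 4 minus day 2 (log2) on the x axis and −log10 of the unadjusted limma p on the y axis; blue points were called and red circles were also late-only. The falls reach further from 0 than the rises, to -2.35 against 1.5.

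Several genes of the class III peroxidase family, secreted enzymes that use hydrogen peroxide to oxidise cell wall phenolics, were among the largest falls. The array annotation gives these genes only by locus, so their family, like the other roles given below for loci without a symbol, is background from outside it. AT2G38380 measured 6.20, 5.97, 5.41 and 5.31 on day 4 in fri(Col)-FLC(Col), fri(Col)-flc-3, FRI(Sf-2)-FLC(Col) and FRI(Sf-2)-flc-3, and 8.26, 7.41, 8.55 and 7.77 on day 2, the order of genotypes kept below. Every day 4 value lay under every day 2 value, and the fitted difference was -2.27 ± 0.26 (SE), or 4.84-fold lower, with an adjusted p of 0.000813. A second probe set of the gene fell by 1.58. AT2G38390, which adjoins AT2G38380 on chromosome 2 with 0 protein-coding genes between them, measured 4.20, 4.61, 4.43 and 4.36 on day 4 and 5.81, 5.17, 5.83 and 5.37 on day 2, a difference of -1.14 ± 0.145 (adjusted p = 0.00115). The days did not overlap here either, although the 2 genes are related and their probes may share targets. AT4G36430 measured 4.87, 5.38, 4.62 and 4.53 on day 4 and 6.70, 6.49, 6.47 and 6.47 on day 2, a difference of -1.68 ± 0.148 (adjusted p = 0.000148). AT2G18150 differed by -1.37 ± 0.136, AT4G37520 by -0.92 ± 0.153 and AT5G64120 by -0.48 ± 0.102. The day 4 and day 2 values did not overlap for any of these 6 genes, which are named because they were called, a choice that favours this. For AT5G64120 the days nearly met, at 5.31 in fri(Col)-FLC(Col) on day 4 and 5.32 in FRI(Sf-2)-flc-3 on day 2. In FRI(Sf-2)-flc-3 it changed by -0.10. The gene lists hold 2 other tested class III peroxidases that were not called, PRXR1 with a difference of 0.01 (adjusted p = 0.964) and AT5G66390 with -0.15 (adjusted p = 0.531), and the family as a whole was not counted. Without the FRI(Sf-2)-flc-3 day 2 array all 6 kept their calls, and 5 kept them in every setting in which they were tested. The exception was AT5G64120, which kept its call in 14 of 22 settings and lost it without any 1 of the day 2 and day 4 arrays of fri(Col)-FLC(Col), fri(Col)-flc-3 and FRI(Sf-2)-FLC(Col), with differences of -0.40 to -0.50 and a highest adjusted p of 0.0874.

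Among the enzymes of defence metabolites and redox repair, AT2G25450 stood out. It encodes a 2-oxoglutarate-dependent dioxygenase that hydroxylates the side chain of aliphatic glucosinolates, the defence compounds of this plant family. Its levels were 4.56, 4.51, 5.28 and 4.72 on day 4 and 6.26, 6.78, 7.31 and 6.65 on day 2, with a difference of -1.98 ± 0.124, 3.96-fold lower, and an adjusted p of 1.2e-05. The days were well apart in each genotype, with FRI(Sf-2)-FLC(Col) the highest on both. Neither of the 2 tested members of the glucosinolate list was called. One of them, the glucosyltransferase gene UGT74B1 of glucosinolate synthesis, had a difference of -0.41 ± 0.107 (adjusted p = 0.0546), and it was called without the FRI(Sf-2)-flc-3 day 2 array (-0.55, adjusted p = 0.00299). MSRB5, a methionine sulfoxide reductase that repairs oxidised methionine, measured 4.44, 4.69, 4.69 and 3.81 on day 4 and 5.64, 5.95, 5.75 and 5.65 on day 2, a difference of -1.34 ± 0.149 (adjusted p = 0.000813). The glutathione transferase gene GSTF3 differed by -0.71 ± 0.129 and the glutaredoxin gene AT1G03020 by -0.88 ± 0.121, both with no overlap between the days. The day 4 values of AT1G03020, 3.12, 3.23, 3.0 and 3.66, averaged 3.25, below the filter value of 3.56, and may be bounds. The call of GSTF3 was lost without the fri(Col)-FLC(Col) day 4 array (-0.67, adjusted p = 0.0505). In the list of glutathione transferases and redox enzymes 3 of 11 tested probe sets were called, all lower, where 2.72% of all tested probe sets were, and these were MSRB5, GSTF3 and AT5G64120. The list median was -0.06, against 0.03 over all tested probe sets.

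Defence proteins went both ways. THI2.1, a thionin, which is a small antimicrobial peptide, measured 10.25, 8.76, 10.37 and 9.42 on day 4 and 8.34, 8.62, 7.77 and 8.08 on day 2. All day 4 values lay above all day 2 values, but fri(Col)-flc-3 differed by 0.14 and FRI(Sf-2)-FLC(Col) by 2.61. The fitted difference was 1.5 ± 0.306, or 2.83-fold, with an adjusted p of 0.0196. A second probe set rose by 1.47 ± 0.315, while another, at 4.80 to 5.30 on day 4 and 4.98 to 5.34 on day 2, had a difference of -0.13 (adjusted p = 0.571). The call of the first probe set was lost without FRI(Sf-2)-flc-3 day 2 (1.48, adjusted p = 0.0574), fri(Col)-FLC(Col) day 4 (1.28) or the FRI(Sf-2)-FLC(Col) array of day 4 (1.24) or day 2 (1.21), with a highest adjusted p of 0.0775. The call of the second was lost without any 1 of those 4 arrays, fri(Col)-FLC(Col) day 2 or FRI(Sf-2)-flc-3 day 4, with differences of 1.15 to 1.55. LCR69, a plant defensin gene, rose by 0.37 ± 0.0941, a call kept in 5 of 22 settings and not without the FRI(Sf-2)-flc-3 day 2 array (0.30, adjusted p = 0.127). In contrast OSM34, an osmotin-like protein of the thaumatin family, measured 3.82, 4.03, 3.98 and 4.04 on day 4 and 5.58, 4.85, 5.54 and 5.19 on day 2, a difference of -1.32 ± 0.207 (adjusted p = 0.00437). Its 4 day 4 values lay within the range of the array means of near-floor controls, 3.62 to 4.27. JAL34, a jacalin-related lectin, differed by -0.73 ± 0.165, with overlapping days and the deepest fall, -1.54, in fri(Col)-flc-3. The day 4 value in that genotype, 3.39, lay below the filter value of 3.56 and may be a bound. JAL34 lost its call without the day 4 or day 2 array of fri(Col)-FLC(Col) or the day 2 array of fri(Col)-flc-3 or FRI(Sf-2)-FLC(Col), with differences of -0.56 to -0.79. Also in the defence list, the jacalin-related lectin gene JAL23 (-0.04, adjusted p = 0.954) and the thionin gene THI2.2 (-0.51, adjusted p = 0.182) were not called. Of 10 tested probe sets in the defence list 3 were higher, 2 of them of THI2.1, and 2 were lower, around a median of -0.02, where 1.63% and 2.72% of all tested probe sets were called higher and lower. CHI on this array is a chitinase gene that its symbol had placed among the flavonoid genes. It differed by -0.76 ± 0.188 with overlapping days, a call kept in 7 of 22 settings.

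**Figure D3:**
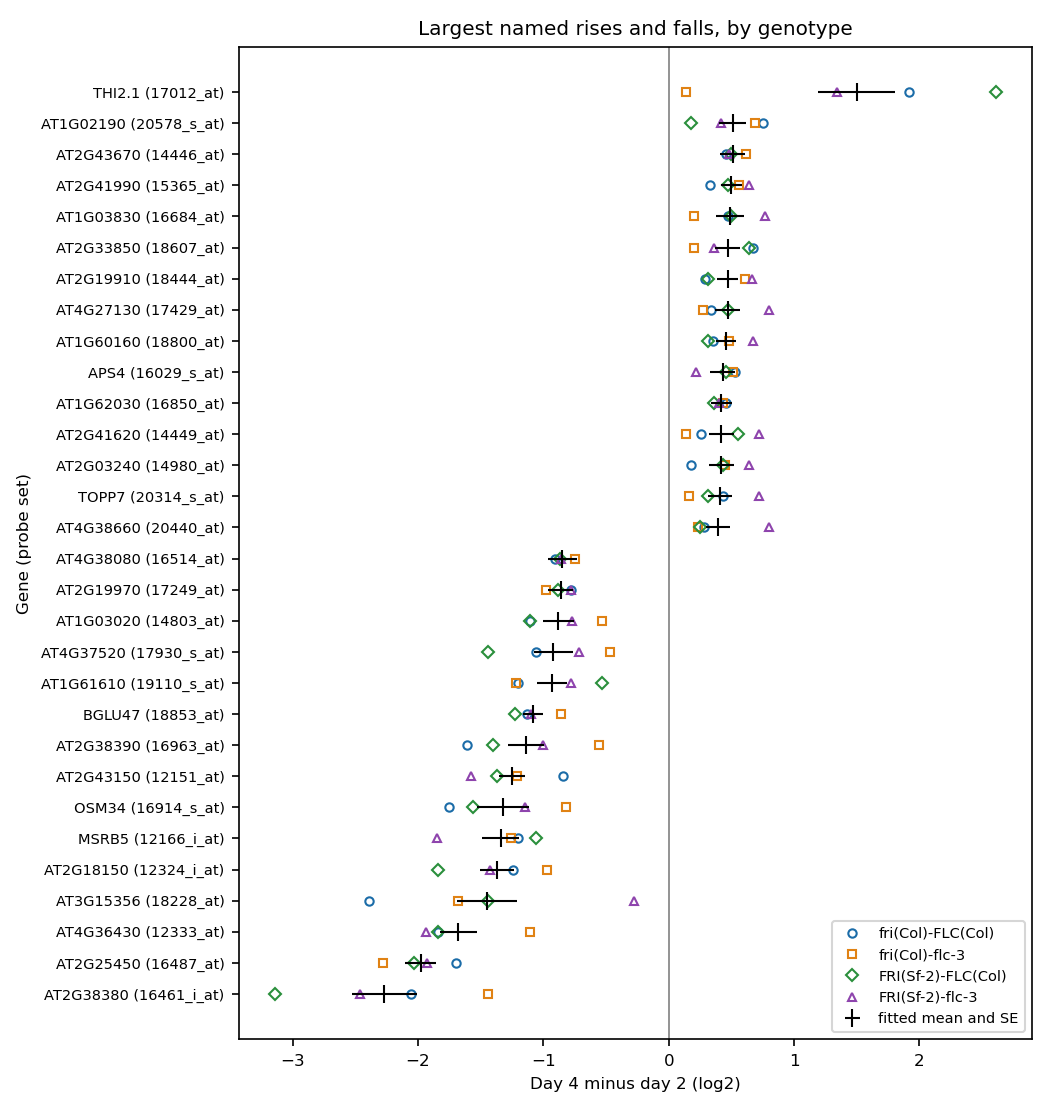
Day 4 minus day 2 (log2) in each genotype (open symbols) for the 15 largest named rises and the 15 largest named falls, with the fitted mean (black tick) and its SE (black bar). The rises other than THI2.1 lie near 0.5, and the falls run from -0.85 to -2.27. Genes were chosen with the same sign in all 4 genotypes.

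Cell wall and light-related genes followed. AT2G43150, which encodes a proline-rich extensin-like wall protein, measured 9.73, 9.39, 9.86 and 9.27 on day 4 and 10.57, 10.60, 11.23 and 10.85 on day 2, a difference of -1.25 ± 0.103 (adjusted p = 9.17e-05). Its days did not overlap. GH9B8, a glycosyl hydrolase of family 9, which holds endoglucanases of the wall, differed by -0.65 ± 0.125 and was the 1 called probe set of 24 tested in the cell wall list, a share near the 4.35% called over all tested probe sets. The list median was 0.00. GH9B8 lost its call without FRI(Sf-2)-FLC(Col) day 2 (-0.64, adjusted p = 0.0548). RCA, the activase of rubisco, measured 10.40, 10.69, 10.48 and 10.56 on day 4 and 10.68, 11.24, 11.01 and 11.08 on day 2, a difference of -0.47 ± 0.106 (adjusted p = 0.0301). The days overlapped by a hair, fri(Col)-flc-3 on day 4 lying just above fri(Col)-FLC(Col) on day 2. RCA was not called without the FRI(Sf-2)-flc-3 day 2 array (-0.44, adjusted p = 0.0764), and of the 8 arrays of both days its call bore the loss of the fri(Col)-FLC(Col) day 2 array alone, with differences of -0.40 to -0.50 without the others. One probe set of the light-harvesting gene LHB1B2 fell by 0.35, a call kept in 3 of 21 settings, and another at 11.41 to 11.74 on day 4 and 11.56 to 12.02 on day 2 was not called (-0.16). In the photosynthesis list 2 of 11 tested probe sets were called, both lower, where 2.72% of all tested probe sets were. In this list 10 of the 11 differences were negative, with a median of -0.17, and over all tested probe sets 2656 of 6185 were. The mean level of the list per array was 9.07 to 9.23 on day 4 and 9.18 to 9.42 on day 2, and whether the amount of green leaf tissue per sample differed was not tested.

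GIGANTEA (GI), which links the clock to photoperiodic flowering, and CCL, a gene with a daily rhythm, were the only genes of the photoperiod and clock list with tested probe sets, and all 4 of these, 3 of them of GI, were called lower, with a median of -0.44, where 2.72% of all tested probe sets were called lower. GI measured 7.17, 7.29, 7.38 and 7.02 on day 4 and 7.43, 7.87, 7.84 and 7.43 on day 2 on one probe set, a difference of -0.43 ± 0.0974 (adjusted p = 0.0315). No day 4 value reached the lowest day 2 value. The other GI probe sets both differed by -0.44. CCL measured 6.54, 7.47, 7.24 and 7.21 on day 4 and 7.17, 8.25, 7.53 and 7.48 on day 2, a difference of -0.49 ± 0.0977 (adjusted p = 0.0172). For CCL the days overlapped, because fri(Col)-FLC(Col) was low and fri(Col)-flc-3 high on both. The change by day 2 had been -1.21 for that probe set of GI (adjusted p = 1.74e-05) and -1.66 for CCL (adjusted p = 2.07e-06). The hour of harvest is not given, and its part in these values was not tested. All 4 probe sets stayed called without the FRI(Sf-2)-flc-3 day 2 array, with adjusted p between 0.00601 and 0.0342. One GI probe set kept its call in 21 of 22 settings, the other GI probe sets in 13 of 22 and CCL in 17 of 22. CCL lost its call without fri(Col)-FLC(Col) day 4 (-0.44) or day 2 (-0.48) or fri(Col)-flc-3 day 4 (-0.45).

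The named rises apart from THI2.1 were small and similar in size, between 0.37 and 0.51. AT2G43670 measured 4.97, 4.99, 5.36 and 5.10 on day 4 and 4.52, 4.37, 4.85 and 4.62 on day 2, a difference of 0.51 ± 0.0984 (adjusted p = 0.0152), and all 4 genotypes lay within 0.46 to 0.62. AT1G60160, a potassium transporter gene, differed by 0.46 ± 0.0797 with day 2 values of 5.54 to 5.64 in every genotype. AT2G41990 measured 7.66, 7.85, 7.45 and 7.87 on day 4 and 7.33, 7.30, 6.98 and 7.23 on day 2, a difference of 0.50 ± 0.0869 (adjusted p = 0.00842). AT1G02190, related to the wax gene CER1, differed by 0.51 ± 0.106, from 0.18 in FRI(Sf-2)-FLC(Col) to 0.75 in fri(Col)-FLC(Col), and AT4G27130, a translation initiation factor of the SUI1 type, by 0.47 ± 0.098. AT2G33850, at 9.91 to 10.26 on day 4 and 9.35 to 9.71 on day 2, differed by 0.47 ± 0.10. The remaining named rises were AT1G03830 (0.49), APS4 (0.43), AT2G03240, AT2G41620 and AT1G62030 (0.42 each), the protein phosphatase gene TOPP7 (0.41) and AT4G38660 (0.39). The day 4 and day 2 values did not overlap for 14 of the 17 named rising probe sets. For the falling ones this held for 23 of 27. All were chosen as called on these same arrays, which favours a lack of overlap, and the share over all tested probe sets is not given here. Without the FRI(Sf-2)-flc-3 day 2 array 9 of the 17 rises kept their calls and 25 of the 27 falls did. Of the named rises, AT1G03830, AT2G03240, AT2G41620, TOPP7, AT4G38660, LCR69 and both probe sets of THI2.1 lost theirs, with adjusted p from 0.0542 to 0.127. The falls that lost theirs were RCA and LHB1B2. Of all 15 named rises by size, AT2G41990, AT1G60160 and AT2G19910 kept their calls without any 1 array, and each of the others lost its call without at least 1.

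The question of which changes began only after day 2 was put with 3 conditions. A probe set was late-only when day 4 minus day 2 was called, day 2 minus day 0 was not, and the change after day 2 differed from the change before it in the same direction. For comparison, day 2 minus day 0 called 661 probe sets (10.7%), and the difference between the changes called 165 (2.67%). These comparisons share the day 2 arrays, with opposite sign, so an error in a day 2 array enters both. Of the 269 called probe sets, 170 were not called by day 2, and 22 met all 3 conditions, which is 0.356% of those tested. Of these 2 rose (0.0323%) and 20 fell (0.323%). Each had the same sign in all 4 genotypes, which their choice as called favours. The other 148 were called from day 2 to day 4 without a difference from the first 2 days that passed the test. A missed threshold for day 2 minus day 0 does not show that nothing had changed by then. With the added condition that the change by day 2 was under 0.2 in size, 7 of the 22 were left.

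Of the 22, 9 probe sets had 1 gene, and these stand for 8 genes, of which 7 fell. The deepest was AT2G38380, whose levels on day 0 were 6.88, 7.49, 8.02 and 7.13, followed by the day 2 and day 4 values above. Its change by day 2 was 0.62 (adjusted p = 0.165) and the change after day 2 was lower than that by 2.89 (adjusted p = 0.00749). AT3G15356, a legume-type lectin gene, measured 5.40, 5.21, 5.94 and 6.17 on day 4 and 7.79, 6.88, 7.39 and 6.44 on day 2, a difference of -1.45 ± 0.239 (adjusted p = 0.00581). The fall was uneven, -2.39 in fri(Col)-FLC(Col) and -0.28 in FRI(Sf-2)-flc-3, though the days did not overlap. BGLU47, a beta-glucosidase gene, measured 3.86, 3.93, 4.41 and 4.23 on day 4 and 4.99, 4.79, 5.64 and 5.33 on day 2, a difference of -1.08 ± 0.0804 (adjusted p = 4.54e-05), the lowest of the late-only probe sets. Its day 0 values of 4.83, 4.78, 5.44 and 5.11 lay within 0.22 of the day 2 values of the same genotype, and FRI(Sf-2)-FLC(Col) was the highest on each day. The day 4 values lay near the level of the near-floor controls. AT1G61610, an S-locus lectin receptor-like kinase gene, differed by -0.93 ± 0.119. AT2G19970, AT4G38080 and AT4G14020 differed by -0.86, -0.85 and -0.84, with changes by day 2 of -0.01, 0.02 and 0.18. The one rise with a gene was AT2G19910, of the RNA-dependent RNA polymerase family. It measured 7.04, 7.07, 6.72 and 7.26 on day 4 and 6.75, 6.46, 6.42 and 6.6 on day 2, a difference of 0.47 ± 0.0857 (adjusted p = 0.0117), and its change by day 2 was -0.29 (adjusted p = 0.0517). On day 0 it had measured 6.94, 6.80, 6.71 and 6.94, and in each genotype the day 4 value lay above that of day 0 and closer to it than to that of day 2. Without the FRI(Sf-2)-flc-3 day 2 array 17 probe sets were late-only, and 9 of them were among the 22. AT2G38380 on both probe sets, AT3G15356, BGLU47 and AT1G61610 remained late-only, while AT2G19970, AT4G38080, AT4G14020 and AT2G19910 did not, though all 4 stayed called for day 4 against day 2. The count of late-only probe sets was 9 without FRI(Sf-2)-FLC(Col) day 2, 10 without fri(Col)-flc-3 day 2 and 11 without fri(Col)-FLC(Col) day 2.

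**Figure D4:**
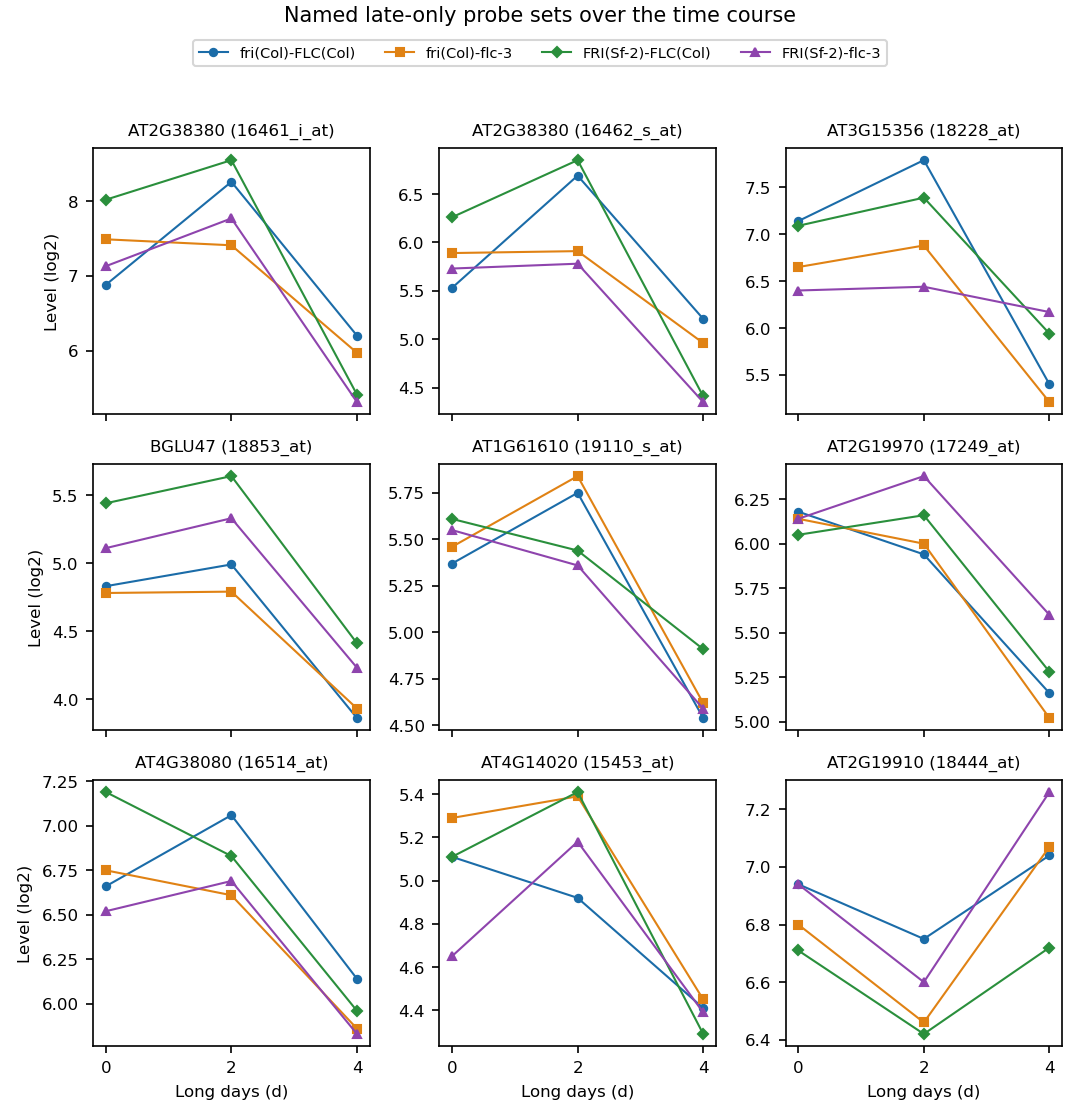
Log2 level against days in long days for the 9 late-only probe sets with 1 gene, with 1 line per genotype and 1 array per point. Of the 9 panels 8 drop after day 2, and AT2G19910 dips on day 2 and returns to near its day 0 level.

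Other named genes had begun to change before day 2. By day 2 AT2G25450 had changed by -1.72, MSRB5 by -2.14, GSTF3 by -1.21, AT2G43150 by -0.79, AT4G37520 by -0.65 and AT1G03020 by -0.57. THI2.1 rose by 1.64 and AT2G33850 by 0.62 up to day 2, so that these 2 genes climbed over the whole course. The day 0 values of THI2.1 were 6.18, 6.6, 6.78 and 6.71, below every later value. Others peaked or dipped on day 2. AT4G36430 rose by 0.96 and AT2G18150 by 0.55 before their falls, and GH9B8 and AT5G64120 did so by 0.46 and 0.38. Before their rises, AT2G43670 changed by -0.51, AT4G27130 by -0.40, TOPP7 by -0.38 and AT2G41620 by -0.35. For each of these 8 genes the difference between the changes passed the test, with adjusted p from 0.00058 to 0.034. With the FRI(Sf-2)-flc-3 day 2 array left out, AT2G43670, AT4G36430 and AT5G64120 kept all 3 calls. TOPP7 and AT2G41620 were then not called for day 4 against day 2, and the difference between the changes was not called for them, AT4G27130 or GH9B8 (adjusted p from 0.0592 to 0.0899). The changes by day 2 of AT4G27130, AT2G41620 and GH9B8 were not called either (adjusted p from 0.051 to 0.0865). The change of AT2G18150 by day 2 was then 0.53 and not called (adjusted p = 0.0529), which made it late-only.

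**Figure D5:**
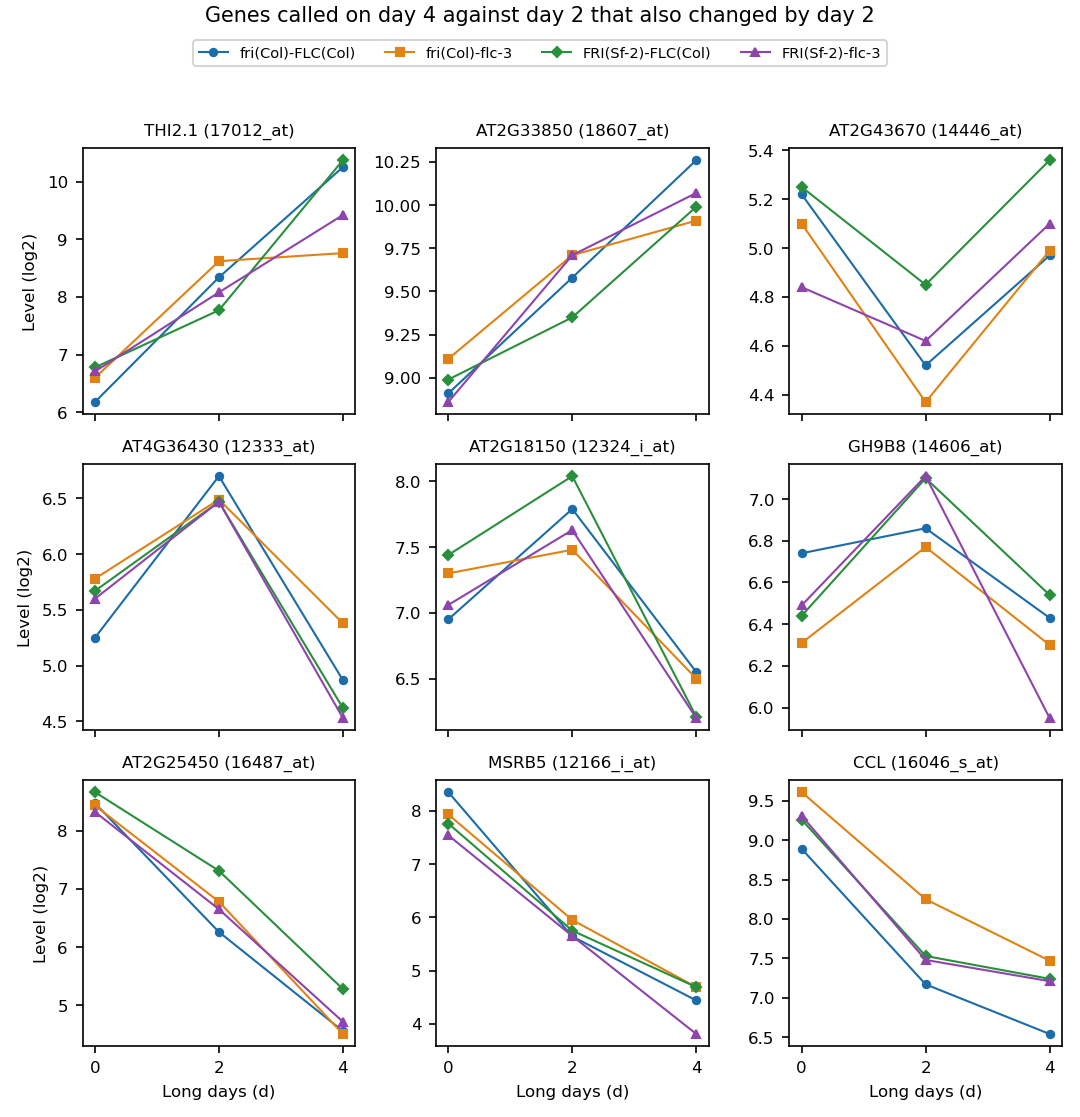
Log2 level against days in long days for 9 probe sets, chosen after their values were seen, that were called on day 4 against day 2 and also by day 2. THI2.1 and AT2G33850 climb throughout, AT2G25450, MSRB5 and CCL fall throughout, AT2G43670 dips, and AT4G36430, AT2G18150 and GH9B8 peak on day 2. The calls by day 2 of AT2G18150 and GH9B8 were lost without the FRI(Sf-2)-flc-3 day 2 array.

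The change from day 2 to day 4 in FRI(Sf-2)-FLC(Col), where FRI is active and FLC is present, was set against the mean change of the other 3 genotypes. No probe set passed, 0 of 6185 (0.0%), in limma on a model with 4 residual degrees of freedom, and the lowest adjusted p was 0.297. At an unadjusted p under 0.05 there were 202 of 6185, a smaller share than the 0.05 given on average where no probe set differs. THI2.1 changed by 2.61 in FRI(Sf-2)-FLC(Col) and by 0.14 to 1.92 in the others, a difference of 1.47 (adjusted p = 1.0). AT2G38380 changed by -3.14 in FRI(Sf-2)-FLC(Col) and by -1.44 to -2.46 in the others, a difference of -1.16 ± 0.479 that was not called. Among all called falls the median change was -0.56 in FRI(Sf-2)-FLC(Col), and -0.66, -0.54 and -0.54 in fri(Col)-FLC(Col), fri(Col)-flc-3 and FRI(Sf-2)-flc-3. For the called rises it was 0.35 in FRI(Sf-2)-FLC(Col) and 0.41, 0.41 and 0.53 in the other genotypes. Without the FRI(Sf-2)-flc-3 day 2 array 1 probe set passed.

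Gene lists without a call included flowering and meristem genes. Of the flowering list 3 of 4 probe sets were tested, and UFO, LD and SPT had differences of 0.16 to 0.24. The meristem and organ polarity list had 5 tested probe sets and a median of 0.13, or 0.08 without the FRI(Sf-2)-flc-3 day 2 array, and its mean level per array was 6.82 to 6.93 on day 4 and 6.71 to 6.80 on day 2. The 4 tested histone probe sets all had positive differences with a median of 0.22, and the histone H2B gene HTB2 came nearest to a call (0.33 ± 0.0956, adjusted p = 0.0758). In the cold and dehydration list 8 of 9 differences were negative, with a median of -0.37, or -0.24 without the FRI(Sf-2)-flc-3 day 2 array. Its largest difference was that of STZ, a zinc finger transcription factor gene of stress responses, which measured 3.24, 3.33, 3.22 and 3.19 on day 4 and 3.70, 5.41, 3.72 and 4.17 on day 2 (-1.0 ± 0.349, adjusted p = 0.132). The day 2 values of STZ scattered while those of day 4 lay together, and fri(Col)-flc-3 was the highest on day 2. These day 4 values lay below the filter value of 3.56 and may be bounds. Another probe set of STZ, at 5.04 to 5.18 on day 4 and 5.24 to 7.04 on day 2, was not called either (-0.85, adjusted p = 0.161). HEME2, of heme and chlorophyll synthesis, missed the threshold at -0.30 (adjusted p = 0.0505). The lists for hormone response, cell cycle, actin and microtubules, heat shock, sugar and nitrogen, and chlorophyll had no call among their 33 tested probe sets. The marker lists of pollen and anther, root, vascular tissue and trichome had 5 tested probe sets, none of them called, with list medians between -0.16 and -0.01. With that FRI(Sf-2)-flc-3 day 2 array left out, the pollen and root medians were 0.08 and 0.04, and the vascular and trichome medians -0.24 and -0.17.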

How the data were processed

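The authors deposited 1 log2 value per probe set and array. No label or header states this unit, and it was inferred from the size of the values. The software and normalization behind them were not given in the sources used here. Values ran from 2.12 to 13.18, and the array medians lay within 0.058 of each other, so they were used as deposited. Of 8297 probe sets 50 controls were left out, and 6185 with a mean above the 25th percentile (3.56) were tested. By the platform's annotation 3794 probe sets had 1 gene, 70 had several and 4383 had none, and of the 3794 the RefSeq table of TAIR10.1 held 3784. Fits used limma 3.58.1 under R 4.3.3 (eBayes with a trend, genotype and day, 12 arrays, 6 residual and 5.93 prior degrees of freedom, two-sided). The same code was also run on simulated data with independent normal errors, and the outcome is not given here. Those data held no differences between genotypes in their response and no array that stood apart. The number of arrays limits the precision. Pairing is by genotype, and the fit without that block is an alternative.

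Genes named are the top 15 rises and top 15 falls by size among called probe sets with 1 gene and the same sign in all 4 genotypes, the late-only ones under the same conditions, and each called member of 23 gene lists (145 probe sets, 122 tested, in 21 lists). The members and lists were chosen with earlier results of these data known. POR was matched to the actin and microtubule list by its symbol alone. BRK1 entered the heat shock list by a synonym in error and stayed among its tested probe sets. Promoter motifs were not analysed here.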

Additional observations from a re-analysis of the deposited data

Results flagged for a closer look

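The day 4 and day 2 values of the 44 named probe sets formed 88 groups of 4 arrays. In these, 2 arrays lay far from the rest of their group. Chance gives about 1 in 20 groups of independent, normally spread values. The groups here come from probe sets chosen as called, and each mixes 4 genotypes. That rate may therefore not hold, and whether 2 of 88 departs from chance cannot be told. AT4G36430, a class III peroxidase gene, measured 6.70 in fri(Col)-FLC(Col) on day 2, against 6.47 to 6.49 in the other genotypes, whose values lay unusually close together. Its fall kept its call without any 1 array. The LHB1B2 probe set 12738_r_at measured 5.18 in FRI(Sf-2)-flc-3 on day 2, the array with the high hybridisation controls, against 4.91 to 4.95 in the others. Without that array the difference of LHB1B2 was -0.32 (limma adjusted p = 0.102), not called.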

How the results depend on the processing

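No called probe set changed direction in any alternative, and with quantile normalization, median centring, other filters or other variance priors the counts of calls from day 2 to day 4 stayed within 1.5 times of 269. With only the 8 arrays of both days 132 were called, 35 higher and 97 lower. With those 8 arrays and also without the replicate block of genotype, so with both choices changed, 42 were called, 2 higher and 40 lower. With all 3 FRI(Sf-2)-flc-3 arrays left out 157 were called, 27 of them higher, the difference between the changes called 69, 9 probe sets were late-only, 8 members of gene lists were called against 16, and 1 probe set passed for FRI(Sf-2)-FLC(Col) against the other genotypes. Array weights gave 2 for the last. The added limit of 0.2 on the change by day 2 left 7 late-only probe sets. Leaving out 1 array gave 113 to 228 calls, 21 to 77 higher and 85 to 159 lower, 64 to 153 for the difference between the changes, 9 to 23 late-only, 6 to 14 list members and 0 to 1 for the genotype difference, which could not be fitted without the FRI(Sf-2)-FLC(Col) array of day 4 or day 2. The share of rises among the calls was 37.5% and moved by over 10 percentage points to 26.5% with 8 arrays, 4.76% with 8 arrays and no block, 17.2% without FRI(Sf-2)-flc-3, and 14.9% to 27.4% without any 1 of the day 4 and day 2 arrays of FRI(Sf-2)-flc-3 and fri(Col)-FLC(Col) and the day 4 array of fri(Col)-flc-3. Of the 44 named probe sets 16 were called in every setting that tested them, all of them falls. The cause of these shifts was not tested. Signals near the floor and 1 array per genotype and day limit what can be called.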

Other observations

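Probe sets without a gene name, chosen here after their values were seen, held some of the largest changes. The deepest fall was that of 13212_s_at, which measured 5.94, 6.91, 7.43 and 6.36 on day 4 and 9.91, 9.19, 9.48 and 7.44 on day 2 in fri(Col)-FLC(Col), fri(Col)-flc-3, FRI(Sf-2)-FLC(Col) and FRI(Sf-2)-flc-3, a difference of -2.35 ± 0.332 (limma adjusted p = 0.0023), after a rise of 1.45 up to day 2. 18920_at fell by 1.75 ± 0.22 after a rise of 0.88, and it was late-only without the FRI(Sf-2)-flc-3 day 2 array. The rises 18035_at and 18036_s_at were uneven between genotypes. On day 4 18035_at measured 5.65, 6.78, 3.78 and 5.64, against 4.08, 4.25, 3.68 and 4.05 on day 2, so that FRI(Sf-2)-FLC(Col) changed by 0.10 and the other genotypes by 1.57 to 2.53. The difference between FRI(Sf-2)-FLC(Col) and the others was -1.80 and was not called (limma adjusted p = 0.406). 18036_s_at likewise changed by 0.23 in FRI(Sf-2)-FLC(Col) and by 0.80 to 2.1 in the others, a difference of -1.28 (adjusted p = 1.0). Without the FRI(Sf-2)-flc-3 day 2 array 18036_s_at was called (1.29, adjusted p = 0.0373) and 18035_at was not (1.43, adjusted p = 0.061).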
